A study of Mus musculus with 4 samples.

Results

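Transcripts of 77 cytosolic ribosomal protein genes were read in nuclei of mouse kidney cortex, as a group that is made in the nucleus but resides almost wholly in the cytoplasm. The members were all gene symbols formed as Rpl or Rps with a number and at most 1 letter, together with Rplp0, Rplp1, Rplp2 and Rpsa. This gave 77 of the 21456 genes in the deposited table, of which 46 code for proteins of the large ribosomal subunit and 31 for proteins of the small subunit. The choice used names only, not levels. Rpl13 fits the pattern but was not among the genes analysed here, and Rps3a1, Fau and Rpl36al, which also code for ribosomal proteins or close paralogues, have names outside it.

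The data were droplet-based single-nucleus RNA sequencing of C57BL/6J kidney cortex with 4 genotypes and 1 library each, namely the double mutant Sco2KO/KI;db/db, Sco2KO/KI, db/db and wild type (WT). Sco2 is a copper chaperone of the mitochondrion that cytochrome c oxidase needs for its assembly, KO/KI denotes a knockout and a knock-in allele, and db/db mice lack the signalling leptin receptor and become obese and diabetic. The labels state neither age nor sex, nor how many animals went into each library, and nuclei came from tissue frozen in a preservative and lysed with detergent. Values are averages over the nuclei of 1 of 21 clusters in 1 library, in unique molecular identifiers (UMIs) per 10000 UMIs of a nucleus, so each level below is a share of the RNA captured from a nucleus. With no replicate libraries no difference was tested, and the ranges given over clusters describe how alike the clusters of 1 library were, not how alike animals would be.

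The mature ribosome joins a large subunit, which forms peptide bonds, to a small subunit, which decodes the messenger RNA, and each subunit is ribosomal RNA coated with proteins. The mRNAs of nearly all these proteins begin with a C and a run of pyrimidines, the 5′ terminal oligopyrimidine (TOP) tract, through which mTORC1 and the RNA-binding protein LARP1 control their translation together with those of elongation factors. Ribosomal protein mRNAs are among the most abundant and stable in the cytoplasm, while the nucleus holds chiefly newly made transcripts, so in isolated nuclei they are used as one sign of attached or carried-over cytoplasm. Transcripts of the mitochondrial genome, which never pass through the nucleus, are another, and the long non-coding RNA Malat1, which stays in the nucleus, is a sign of nuclear RNA.

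Sequence bears on how the members were counted, since their mRNAs have many retroposed copies in the genome. Of the 77 members, 66 had at least 1 other annotated transcript at 98% identity or more to their coding sequence over at least 90 bases, 19 had 5 or more, and the most was 17. Rps27, a zinc-binding small-subunit protein, shows this. Its 255-base coding sequence, from mm10 with GENCODE vM21 (chr3:90212522-90213651, minus strand), was identical at all bases to the intronless gene Rps27rt (chr9:114982366-114982739, minus strand), so the sequence printed for Rps27 is that of Rps27rt as well. The paralogue Rps27l (chr9:66946086-66949516, plus strand) differed from it at 61 of 255 bases, an identity of 76.1%, and capitals mark those bases in both. Rpl41 (chr10:128548114-128549305, minus strand), the member with the highest level, has a coding sequence of only 78 bases and is given whole.
Rps27: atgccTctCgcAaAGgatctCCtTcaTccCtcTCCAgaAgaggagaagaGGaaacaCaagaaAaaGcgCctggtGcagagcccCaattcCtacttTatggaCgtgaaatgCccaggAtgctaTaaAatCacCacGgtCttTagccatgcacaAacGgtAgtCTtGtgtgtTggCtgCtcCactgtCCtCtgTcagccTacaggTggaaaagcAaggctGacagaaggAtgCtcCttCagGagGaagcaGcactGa
Rps27l: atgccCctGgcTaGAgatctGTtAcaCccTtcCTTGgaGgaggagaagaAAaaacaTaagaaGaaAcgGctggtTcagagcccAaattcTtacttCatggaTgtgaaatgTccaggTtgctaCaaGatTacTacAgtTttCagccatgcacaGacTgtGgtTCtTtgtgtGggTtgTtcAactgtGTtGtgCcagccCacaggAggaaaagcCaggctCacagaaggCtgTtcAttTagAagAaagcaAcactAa
Rpl41: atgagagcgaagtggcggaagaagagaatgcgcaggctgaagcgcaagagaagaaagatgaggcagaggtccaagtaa

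The start sites of the members were searched for the TOP tract. RefSeq promoter windows on GRCm38.p6, each 300 bases long with 250 before the annotated start and 50 after, were matched by symbol for 57 of the 77 members. At least 1 of the words CTTTC or CTTTT or CTTCC or CTCTT, read on the transcribed strand within 20 bases of the start, stood in a window of 31 of the 57 members, or 54.4%, against 23.3% of 27025 genes with a window. The words overlap one another, so 1 tract can hold several. The ETS-factor core CCGGAAG, sought on both strands over the whole window, stood in 24 of the 57 members, or 42.1%, against 9.93% of all genes. Windows of 50 bases centred on the start are shown for the 3 members among the 12 highest that held a pyrimidine word, which the capitals mark. They are Rps9 at chr7:3704016-3704065, Rpl4 at chr9:64173362-64173411 and Rpl14 at chr9:120571492-120571541, all on the plus strand of GRCm38.p6.
Rps9: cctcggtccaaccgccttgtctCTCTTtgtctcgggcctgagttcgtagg
Rpl4: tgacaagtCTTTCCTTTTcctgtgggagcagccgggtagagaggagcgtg
Rpl14: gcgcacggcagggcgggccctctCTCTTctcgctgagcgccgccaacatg

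The libraries held 5279 nuclei in Sco2KO/KI;db/db, 1182 in Sco2KO/KI, 4578 in db/db, with 5157 in WT, as recovered from the lowest values of the table. Clusters 0, 1, 2, 3 and 7 carried proximal tubule markers, at least 6 of 13 of them above 2-fold over the other clusters, and are averaged here as the proximal tubule-like class, with 3015, 706, 2003 and 2447 nuclei in the same order. Median UMI totals per nucleus in these 5 clusters lay between 2338 and 4139 in Sco2KO/KI;db/db, 4191 and 6590 in Sco2KO/KI, 2620 and 3718 in db/db, with 2356 and 3701 in WT, so the Sco2KO/KI library had the fewest and the deepest nuclei. Sco2 itself was near 0 in the class in every library, at 0.018, 0.0216, 0.011 and 0.034, and does not check the genotype labels.

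Ribosomal protein transcripts made up a small share of the nuclear RNA. In the proximal tubule-like class the 77 members summed to 19.03 ± 3.43 UMIs per 10000 in Sco2KO/KI;db/db, 17.01 ± 1.39 in Sco2KO/KI, 13.7 ± 0.909 in db/db, with 21.5 ± 2.44 in WT (SD over the 5 clusters of 1 library). This corresponds to between 3.97 and 10.2 member UMIs per nucleus in the clusters of Sco2KO/KI;db/db, 7.49 and 11.8 in Sco2KO/KI, 3.73 and 5.21 in db/db, with 5.20 and 8.59 in WT, estimated from level and median depth. Malat1 alone was at 418, 545, 503 and 634 UMIs per 10000 in the same libraries. The db/db library stood lowest for the members in 14 of the 14 clusters with at least 20 nuclei in every library, and WT stood highest in 10 of them.

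Within the group the levels were uneven. Averaged over the libraries, the members ran from 0.00815 UMIs per 10000 for Rpl3l to 1.48 for Rpl41, with a median of 0.147. Only 12 members reached 0.5 in the class mean of any library, and 29 stayed under 0.1 in every library. The 3 highest members carried 20.3% of the summed level and the 12 highest 49.2%. The order was much the same in each library: Pearson's r between libraries of the log2 member levels lay between 0.93 and 0.97 over the 77 members, a description only, since members share depth and library. Large-subunit members held 61.9% of the summed level in the class, and between 53.9% and 69.1% of it in the 72 cluster averages with at least 20 nuclei.

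The highest members are shown by library in the bar plot of member levels. Rpl41, the short basic large-subunit protein, was at 1.70 in Sco2KO/KI;db/db, 1.37 in Sco2KO/KI, 0.838 in db/db, with 2.02 in WT. Rplp1 (chr9:61913284-61914542), an acidic protein of the stalk that recruits elongation factors, was at 1.74, 0.935, 0.798 and 1.16 in the same order, and was the only member of the 5 highest with its peak in the double mutant. Rpsa (chr9:120127689-120132369), a small-subunit protein also known as the laminin receptor, was at 1.11, 0.775, 0.796 and 1.19. Rpl14 (chr9:120571444-120574654), a large-subunit protein, was at 1.03, 0.892, 0.516 and 1.15, and Rps15 (chr10:80292453-80294114), a protein of the small-subunit head, at 0.826, 0.904, 0.516 and 1.13. Apart from Rpsa, which was slightly lower in Sco2KO/KI, each of these 5 was lowest in db/db.

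**Figure D1:**
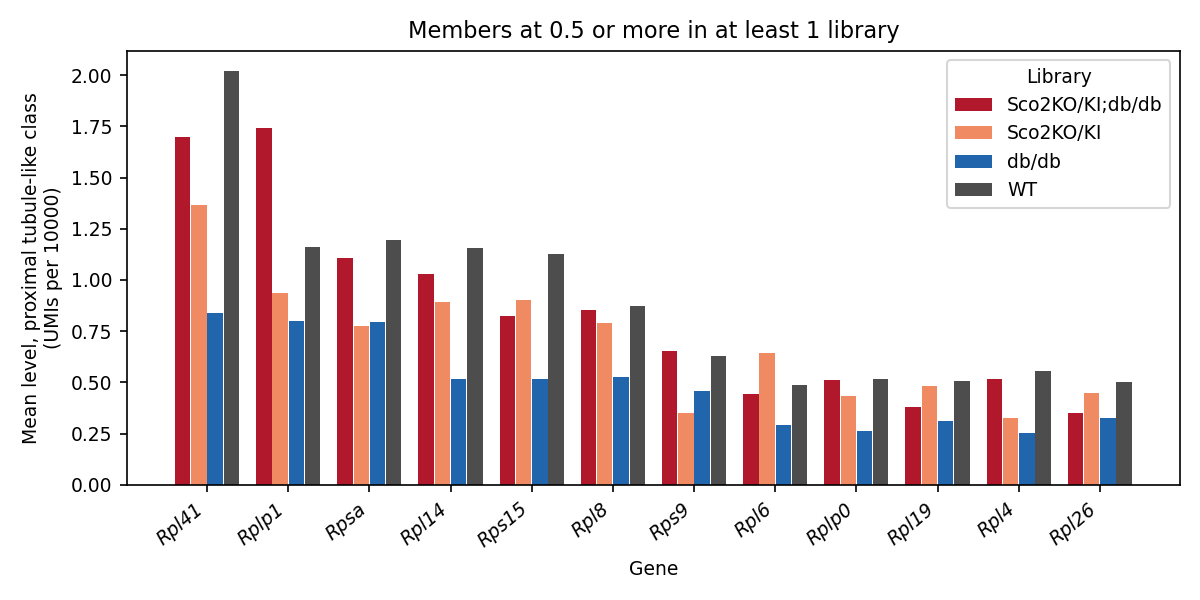
Level of the 12 members that reached 0.5 UMIs per 10000 in at least 1 library, as the mean over the 5 proximal tubule-like clusters (y axis), with 1 bar per library and no error bar because each library is single. Rpl41 and Rplp1 lead, and the db/db bar is the lowest of the 4 for most genes, with Rpsa and Rps9 lowest in Sco2KO/KI.

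At the other end stood Rpl3l, the paralogue of Rpl3 known from striated muscle, at 0.00954 in Sco2KO/KI;db/db, 0.012 in Sco2KO/KI, 0.00588 in db/db, with 0.00515 in WT. Rpl36a, Rpl23a, Rps27 and Rpl37 were the next lowest, all below 0.04 in every library. Among paralogue pairs, Rpl3 (0.0719, 0.037, 0.0695 and 0.0597) exceeded Rpl3l, whereas Rps27l (0.160, 0.209, 0.148 and 0.154) exceeded Rps27 (0.0334, 0.0195, 0.0102 and 0.0303). A low level was not confined to paralogues known from a single tissue, such as Rpl3l.

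Near-identical copies of some low members stood higher than the members themselves. A total of 14 copies with a row of their own, in genes no longer than 5000 bases and covering at least 80% of the coding sequence, belonged to 12 members. Rps27rt, identical to Rps27 over the coding sequence printed above, was at 0.890 in Sco2KO/KI;db/db, 0.7004 in Sco2KO/KI, 0.432 in db/db, with 0.889 in WT. The processed pseudogene Rpl27-ps3 was at 0.688, 0.464, 0.319 and 0.624, while Rpl27, a large-subunit protein, stood at 0.0557, 0.0253, 0.0491 and 0.0397. Gm2000 was at 0.413, 0.373, 0.1904 and 0.471 against 0.0163, 0.0107, 0.0583 and 0.0246 for Rpl35. The 14 copies together summed to 4.45, 3.67, 2.14 and 4.29 UMIs per 10000, with db/db again lowest. How reads that match a member and a copy equally well were assigned is not stated in the labels or the table, so the level of a single member with such a copy is uncertain. These copies were singled out after their values had been seen.

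Rpl29, a large-subunit protein, stood apart from all of this and was likewise singled out after its values had been seen. It was at 0.179 in the double mutant, 0.0123 in Sco2KO/KI, 0.0984 in db/db, with 0.464 in WT, about 149, 4.18, 61.5 and 344 UMIs over the class as estimated from level and depth. In Sco2KO/KI it was at 0 in 10 of 14 clusters with at least 20 nuclei and at most 0.0405, whereas its medians over such clusters were 0.193 in Sco2KO/KI;db/db, 0.113 in db/db and 0.494 in WT. Its log2 ratio of Sco2KO/KI to WT was -2.33 in the class and between -2.61 and -1.97 in its 5 clusters. Rpl29 (chr9:106429454-106431568, plus strand) had 9 near-identical copies. The only one with a row was a match of 416 bases inside a transcript of the long gene Uimc1. Uimc1 as a whole was at 0.936, 0.908, 1.35 and 0.980 and was highest in db/db, which does not give the level of the copy.

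**Figure D2:**
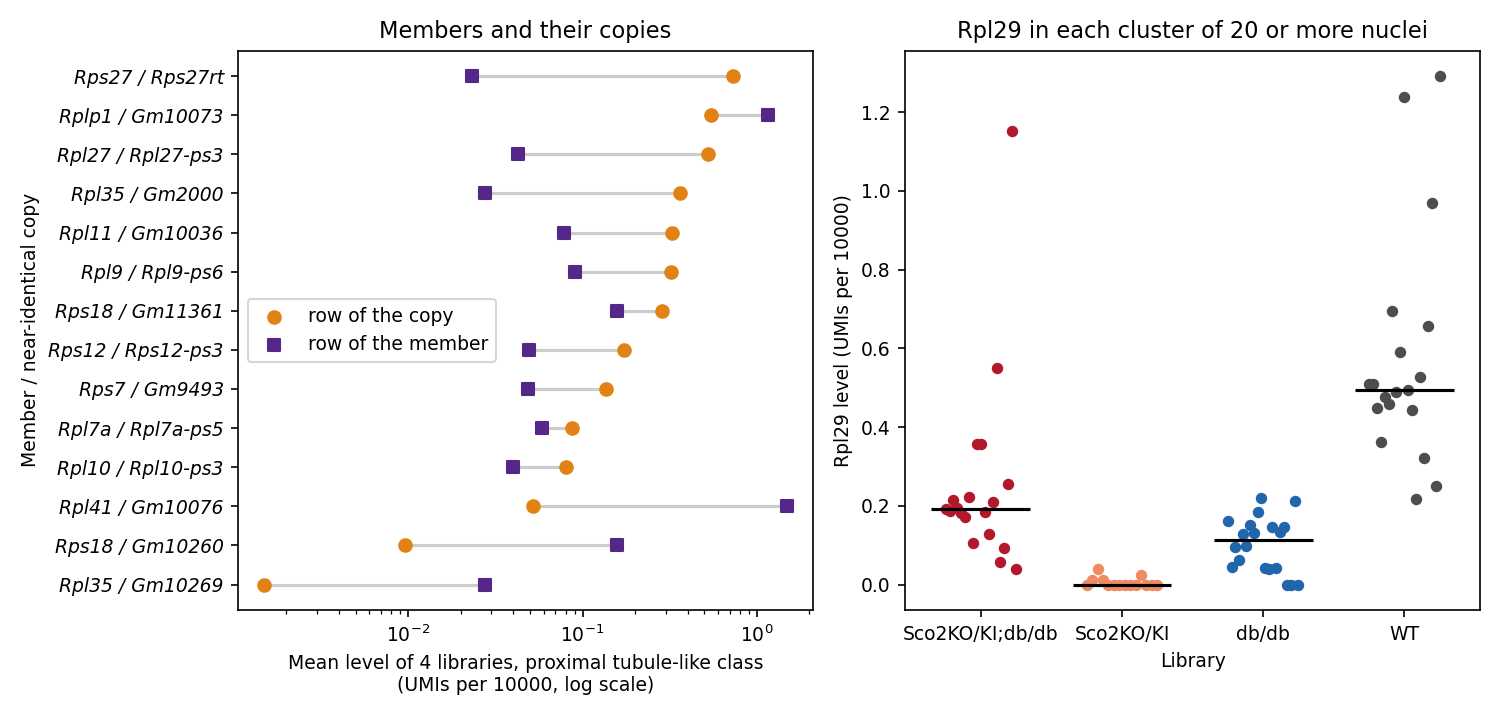
Left, mean level over the 4 libraries in the proximal tubule-like class of each member (squares) and of its near-identical copy (circles), on a log axis in UMIs per 10000. Right, level of Rpl29 in each cluster with at least 20 nuclei (points) and its median (line) by library, where Sco2KO/KI points lie at or near 0 and WT points between 0.218 and 1.29.

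Across cell types the group varied more than across genotypes, as the plot by cluster shows. The urothelium-like cluster 18 had the highest level where at least 20 nuclei were present, at 60.4 UMIs per 10000 in db/db and 64.6 in WT. The leukocyte-like cluster 19 was next, at 53.7 in Sco2KO/KI;db/db and 28.1 in db/db, and the endothelium-like cluster 9 followed at 32.6 in Sco2KO/KI;db/db, 41.9 in Sco2KO/KI, 25.4 in db/db, with 40.9 in WT. Principal cell-like nuclei of cluster 13 averaged 25.6 ± 4.41 and connecting tubule-like nuclei of cluster 8 averaged 23.0 ± 6.82 over the 4 libraries, while thick ascending limb-like nuclei of cluster 4 averaged 21.1 ± 4.82 and distal convoluted tubule-like nuclei of cluster 5 averaged 19.3 ± 5.00 (SD over the 4 genotypes). The proximal tubule-like clusters averaged from 15.3 ± 2.22 for cluster 3 to 19.9 ± 4.88 for cluster 7. Beyond the 3 highest clusters, neighbours in this order lay within their spread over genotypes. Highest over lowest cluster was 3.43 in Sco2KO/KI;db/db, 2.87 in Sco2KO/KI, 5.05 in db/db, with 3.58 in WT. The highest was leukocyte-like in Sco2KO/KI;db/db, endothelium-like in Sco2KO/KI and urothelium-like in db/db and WT. Not every library had 20 nuclei of these types, so the ratios are not like for like.

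**Figure D3:**
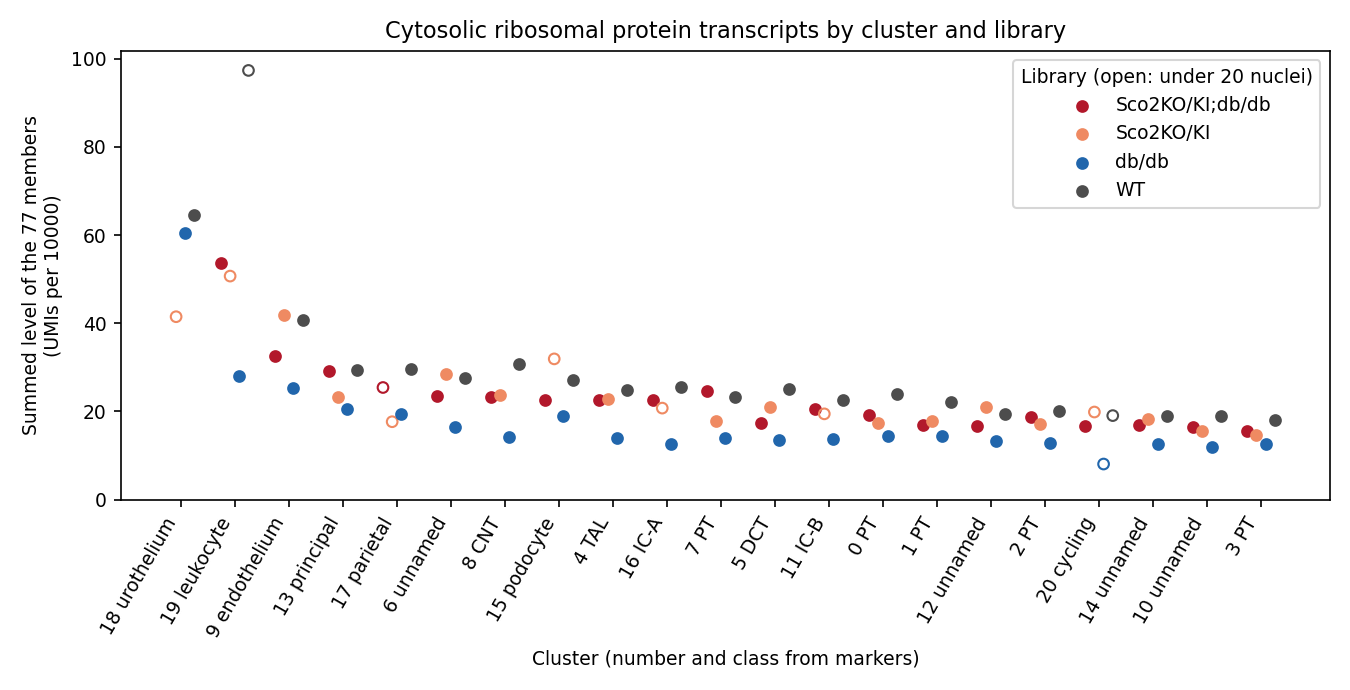
Summed level of the 77 members in UMIs per 10000 (y axis) for each cluster (x axis, ordered by its mean over libraries with at least 20 nuclei) and library; open circles are averages of fewer than 20 nuclei. Urothelium-, leukocyte- and endothelium-like nuclei lie highest and proximal tubule-like nuclei lie low, and the db/db point is the lowest filled point in nearly every cluster.

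Depth and the level of proximal tubule mRNAs also differed between cell types. Endothelium-like nuclei were shallow, with median totals of 985 UMIs in Sco2KO/KI;db/db, 1767 in Sco2KO/KI, 1005 in db/db, with 1004 in WT, and had little Malat1, at 204, 269, 326 and 333 UMIs per 10000. They also held 10 abundant proximal tubule mRNAs at a summed 172, 167, 94.7 and 179 UMIs per 10000, against 243, 199, 140 and 216 in the proximal tubule-like class itself, so these tubule mRNAs were also read in nuclei of another type. Urothelium-like nuclei were not shallow, with medians of 2819 in db/db and 5127 in WT. They held the 10 tubule mRNAs at 38.3 and 73.3 UMIs per 10000. These were the lowest values of each library among clusters outside the class with at least 20 nuclei. Over the 72 cluster averages the summed member level had a Pearson's r of -0.28 with depth and -0.54 with Malat1. Its r with the sum of the 10 tubule mRNAs was 0.03, and 0.85 after the mean of each cluster was subtracted. The averages share libraries and scaling. The part of depth or carried-over RNA in the order of cell types was not tested. Mitochondrially encoded transcripts varied less over clusters, by no more than 1.79-fold within a library, between 118 and 210 in Sco2KO/KI;db/db, 201 and 287 in Sco2KO/KI, 69.2 and 124 in db/db, with 116 and 194 in WT. In db/db they were highest in urothelium-like nuclei, as the members were. In WT, where the members were also highest in urothelium-like nuclei, they stood at 133 there, below the WT median of 138 over clusters.

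Single members followed the summed level unevenly over the 72 cluster averages. Rpl8, which lines the catalytic centre of the large subunit, varied least among members averaging 0.5 or more, with an SD of 0.56 on the log2 scale, followed by Rpl26 with 0.57, Rpl41 with 0.58 and Rpsa with 0.59. Rplp1 varied most, with 0.73, followed by Rps16 with 0.72, Rpl19 with 0.68 and Rplp0 with 0.67. Rplp1 reached 7.08 UMIs per 10000 in leukocyte-like nuclei of Sco2KO/KI;db/db, against 1.07 in those of db/db. These averages rest on 53 and 20 nuclei, with about 305 and 39.4 estimated UMIs over all members, so both values are imprecise. Rplp0 is the scaffold of the same stalk that Rplp1 forms. The 12 members averaging 0.5 or more had a median r of 0.82 with the summed level of the group, of which they are part, and the 4166 other genes at that level had a median of -0.04.

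The non-members whose levels ran most like the group were largely other abundant cytoplasmic mRNAs. Eef1a1, the elongation factor that delivers tRNA and itself a TOP mRNA, came first with r of 0.92 over the 72 averages, followed by Rps27rt with 0.88, the chromatin protein gene Ptma with 0.86 and the translocation factor gene Eef2 with 0.83. The class I histocompatibility genes H2-K1 and H2-D1, each 0.82, Actb and Rpl27-ps3, each 0.78, and Hsp90ab1 with 0.76 were also among the first 10. With the mean of each cluster subtracted, which leaves the differences between genotypes, Eef1a1 was again first with 0.91 and the ferritin genes Fth1 and Ftl1 had 0.91 and 0.88. With the mean of each library subtracted, which leaves the differences between clusters, mt-Co1, a mitochondrially encoded subunit of cytochrome c oxidase, had 0.80.

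The double mutant was set against db/db to read the Sco2 genotype on the diabetic background. The summed level was higher in the double mutant, at 19.03 against 13.7 UMIs per 10000, a log2 ratio of 0.45 that lay between 0.21 and 0.81 in the 5 clusters. The highest of these ratios, in cluster 7, rests on 30 nuclei of the double mutant. Without this cluster the summed ratio was 0.37, and 4 of 7 members at 0.5 or more were at least 1.5-fold higher. Rplp1 had the highest ratio of the members at 0.5 or more, with 1.01, followed by Rpl41 with 0.88, Rpl14 with 0.85 and Rplp0 (0.513 against 0.262) with 0.78. Rps9, a small-subunit protein at the mRNA entry channel (0.654 against 0.459), had the lowest, with 0.32. Of the 9 members at 0.5 or more in either library, 9 had a positive ratio and 5 were at least 1.5-fold higher, where 9.17% of 4057 such genes were, and the median was 0.70 against -0.07 for all such genes. A member that reaches this floor only through its higher library must differ, so the count over all 77 is the fuller one: 51 were positive and 26 negative, that is 66.2% positive, against 55.0% of all 20443 genes detected, and 5, or 6.49%, were at least 1.5-fold higher, against 3.31%. On the members' own rows the difference lay chiefly in the high ones. The 12 highest summed to 10.1 against 5.89 UMIs per 10000, a log2 ratio of 0.77, and the other 65 to 8.92 against 7.83, a ratio of 0.19. The 14 near-identical copies, most of them copies of lower members, summed to 4.45 against 2.14. How far this split depends on the assignment of reads to copies was not tested. The sign was not confined to the tubule: 18 of 18 clusters with 20 nuclei in both libraries were positive. They ran from 0.22 in cluster 1 to 0.93 in leukocyte-like nuclei, of which db/db had only 20.

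The contrast of Sco2KO/KI with WT put the same genotype on the lean background, and here the group was lower in the mutant. The sum was 17.01 against 21.5 UMIs per 10000, a log2 ratio of -0.33 with a range of -0.46 to -0.22 over the 5 clusters. Rps9 was lowest among the 12 members at 0.5 or more, at 0.352 against 0.630 and a ratio of -0.69, followed by Rpl4, a protein of the peptide exit tunnel, at 0.324 against 0.555 and -0.66, Rpsa with -0.55 and Rpl41 with -0.54. Rpl6, a large-subunit protein, went the other way at 0.643 against 0.485, a ratio of 0.33. Of the 12, 11 were negative and 2 at least 1.5-fold lower, where 5.61% of 3939 genes were, and the median was -0.30 against -0.06 for all such genes. This count of 2 was 1 without cluster 0, 1 or 3 and 4 without cluster 2. The 2 members, Rps9 and Rpl4, reached 0.5 in WT only, and Rpl6 reached it in Sco2KO/KI only, so the floor fixed the sign of each. The count over all 77 is again the fuller one. Of these 61 were negative, or 79.2%, against 60.5% of 18750 genes detected, and 4, or 5.19%, were at least 1.5-fold lower, against 2.61%. The lower level was shared by members of high and low level, with -0.36 for the 12 highest and -0.31 for the other 65. Of 14 clusters 11 were negative, and endothelium-like cluster 9 with 0.04 and the unnamed clusters 6 and 12 with 0.05 and 0.12 were not. Ratios this small lie within the scatter of single clusters seen with simulated data, so their signs are uncertain.

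Set against Sco2KO/KI, the double mutant showed no common direction. The sum in the proximal tubule-like class was 19.03 against 17.01 UMIs per 10000, a log2 ratio of 0.15 that ran from -0.08 to 0.45 over its 5 clusters, and only 6 of 14 clusters were positive, with a median of -0.02. Rplp1 stood highest with 0.81, followed by Rps9 with 0.61, Rpl4 and Rpsa with 0.47 each, and Rpl6 was lowest with -0.44. Of the 10 members at 0.5 or more, 8 were positive and 2 at least 1.5-fold higher, where 9.07% of 4001 genes were. Some of the 10, such as Rps9, Rpl4 and Rpl6, reached 0.5 in their higher library only, so the floor fixed their sign. Over all 77 members 47 were positive, or 61.0%, below the 66.4% of 19984 genes detected, and 3, or 3.90%, were at least 1.5-fold higher, against 4.07%. The ratio in cluster 7, the highest of the 5, rests on 30 nuclei of the double mutant, and without this cluster the summed ratio was 0.07 and 0 members were at least 1.5-fold higher.

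The contrast of db/db with WT, which compares the diabetic with the lean genotype where Sco2 is intact, gave the largest difference of the 4 in the summed level, though not in the median of members at 0.5 or more. The sum was 13.7 against 21.5 UMIs per 10000, a log2 ratio of -0.64 with a range of -0.72 to -0.50 over the 5 clusters. Rpl41 was lowest, with a ratio of -1.18 that lay between -1.22 and -1.13 in the 5 clusters, followed by Rpl14 with -1.02, Rps15 with -0.99 and Rpl4 (0.253 against 0.555) with -0.89. Rps9 had the ratio nearest to 0 of the members at 0.5 or more, with -0.40, then Rplp1 with -0.48, Rpl26 (0.326 against 0.5003) with -0.50 and Rpsa with -0.51. Of these 11 members 11 were negative and 6 at least 1.5-fold lower, where 8.6% of 4045 genes were, with a median of -0.63 against 0.07 for all such genes. Among them Rplp0, Rpl4, Rpl19, Rpl26 and Rps9 reached 0.5 in WT only, so the floor fixed their sign. The median over all 77 members was -0.20. Over all 77 members 60 were negative, or 77.9%, against 46.3% of 19621 genes detected, and 14, or 18.2%, were at least 1.5-fold lower, against 3.22%. The 12 highest had a ratio of -0.85 and the other 65 one of -0.45, and large- and small-subunit members had -0.69 and -0.56. Some members of middling level hardly differed, such as Rpl22, a large-subunit protein, at 0.357 against 0.366, and Rpl10a at 0.393 against 0.341; both were picked after their values had been seen. In 19 of 19 clusters the ratio was negative, from -1.12 in connecting tubule-like to -0.10 in urothelium-like nuclei.

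The Sco2 contrast thus had opposite signs on the 2 backgrounds. On the summed level it was 0.45 on db/db and -0.33 on the lean background, a difference of 0.79. In all 14 clusters that allowed both contrasts the ratio was higher on db/db, by 0.20 to 1.18 with a median of 0.69, and in 11 of them it was positive on db/db and negative on the lean background. Of the 77 members 59 had the higher ratio on db/db. No share over all genes was taken for this count, so it cannot be read as a trait of the members. Among all genes detected 55.0% had a positive ratio on db/db and 39.5% on the lean background, against 66.2% and 20.8% of the members. With 1 library per genotype the difference between backgrounds was not tested.

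**Figure D4:**
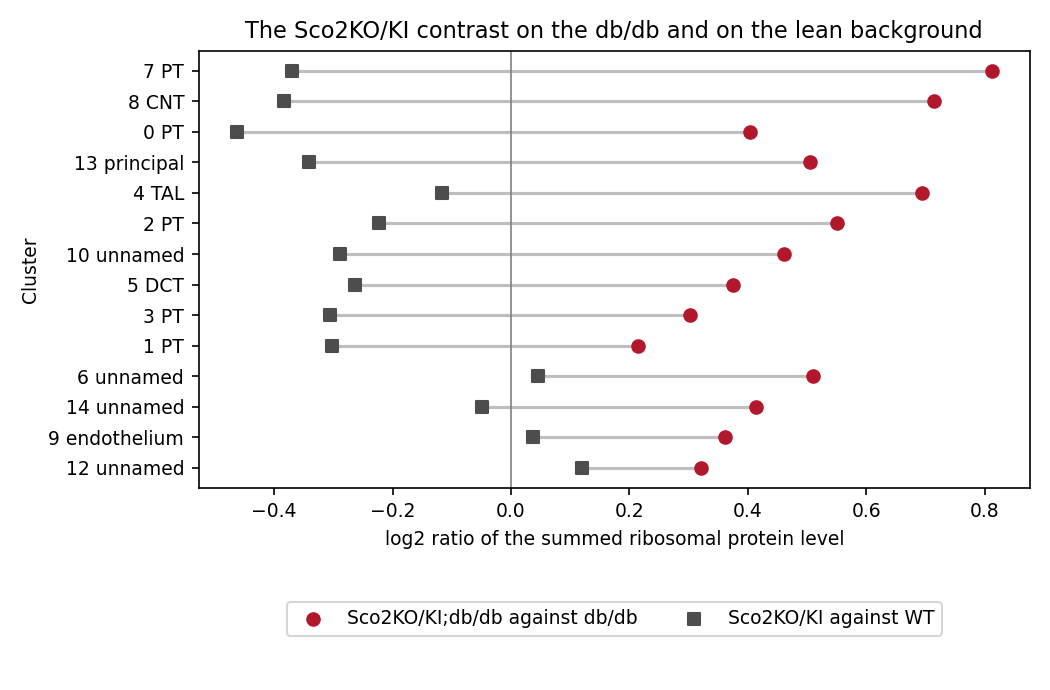
Log2 ratio of the summed ribosomal protein level (x axis) for Sco2KO/KI;db/db against db/db (circles) and Sco2KO/KI against WT (squares) in each of the 14 clusters with at least 20 nuclei in all 4 libraries (y axis, cluster number and class). Every circle lies to the right of 0 and of its square.

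Other transcripts that lie outside the nucleus moved with the ribosomal protein group in some contrasts and not in others, as the plot of cluster ratios shows. In db/db against WT, mitochondrially encoded transcripts were lower as well, at 82.2 against 141 UMIs per 10000 in the proximal tubule-like class and a log2 ratio of -0.77, and in the double mutant against db/db they were higher, at 178 against 82.2 and a ratio of 1.11. In Sco2KO/KI against WT the directions parted: mitochondrially encoded transcripts were higher, at 261 against 141 and a ratio of 0.90, and in 11 of 14 clusters their sign was opposite to that of the ribosomal protein group. In Sco2KO/KI;db/db against Sco2KO/KI they were lower in 14 of 14 clusters, with a ratio of -0.56 in the class. Across the 72 cluster averages the 2 sums had an r of 0.37, and 0.69 after the mean of each cluster was subtracted.

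**Figure D5:**
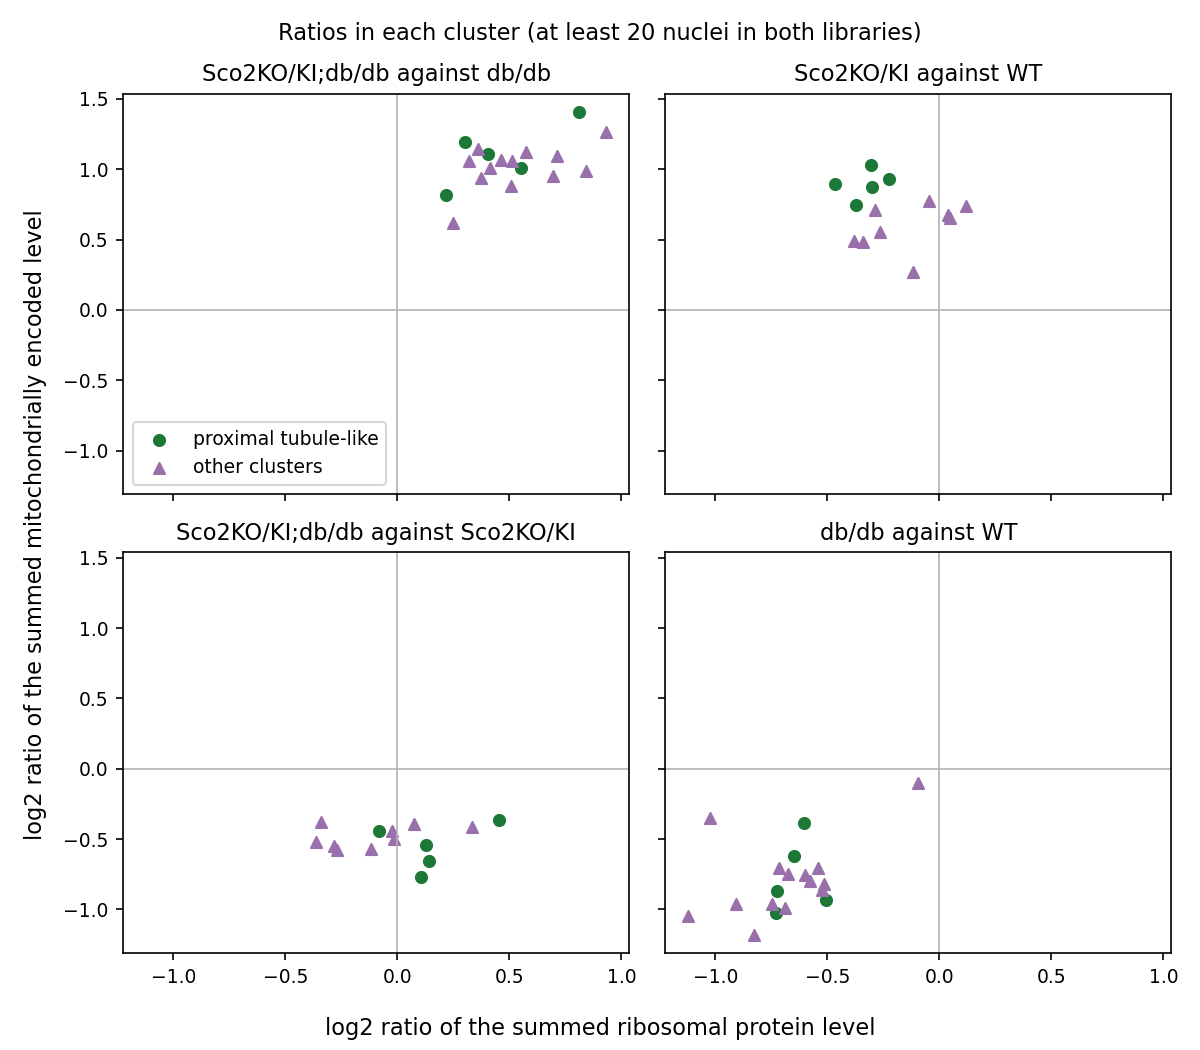
Log2 ratio of the summed ribosomal protein level (x axis) against that of the summed mitochondrially encoded level (y axis) in each cluster with at least 20 nuclei in both libraries, 1 panel per contrast; circles are proximal tubule-like clusters and triangles other clusters. The points lie in the upper right for Sco2KO/KI;db/db against db/db, the lower left for db/db against WT, and mostly the upper left for Sco2KO/KI against WT.

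Other lists of cytoplasmic mRNAs lay on the same side as the ribosomal protein group in the 2 contrasts with the clearest difference. The 14 abundant short cytoplasmic mRNAs, among them the ferritin genes Ftl1 and Fth1, summed to a log2 ratio of 0.84 in the double mutant over db/db and -0.86 in db/db against WT. Ftl1 was at 7.83 in Sco2KO/KI;db/db, 5.99 in Sco2KO/KI, 3.42 in db/db, with 7.52 in WT. The 10 abundant proximal tubule mRNAs had 0.83 and -0.66, although Kap, a kidney androgen-regulated gene, carried much of the lower sum, at 6.58 in db/db against 43.3 in WT. Gpx3, a secreted glutathione peroxidase, carried most of the higher sum, at 134 in the double mutant against 59.6 in db/db, and the medians over these 10 genes were 0.30 and -0.15. The 36 nuclear-encoded genes of oxidative phosphorylation had 0.53 and -0.47, with Cox8a, a subunit of cytochrome c oxidase, at 1.46, 1.32, 0.560 and 1.55 in the 4 libraries. The 18 translation factors and other TOP mRNAs had 0.27 and -0.51, and of these Eef1a1 was at 2.67, 2.86, 1.56 and 3.58 and Eef2 at 1.76, 1.01, 0.929 and 1.75. In Sco2KO/KI against WT the same 4 lists had -0.29, -0.14, -0.13 and -0.28.

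Outside the contrast of the double mutant with Sco2KO/KI, sums over genes that make or regulate ribosomes gave smaller ratios or other signs. The 75 mitochondrial ribosomal protein genes summed to a log2 ratio of 0.12 in the double mutant over db/db, -0.12 in Sco2KO/KI against WT and -0.05 in db/db against WT. The 18 genes of mTORC1 and translation control had 0.15, -0.02 and -0.09, with Mtor at 2.57, 3.30, 2.59 and 3.70 UMIs per 10000 in the 4 libraries. Both sums thus had the signs of the ribosomal protein group at a smaller size, but the medians of their genes at 0.5 or more were -0.20, 0.03 and 0.22 for the first list and -0.13, 0.05 and -0.01 for the second. After the mean of each cluster was subtracted, the sum of the mitochondrial ribosomal protein genes had an r of 0.71 with that of the members over the 72 cluster averages. The 18 ribosome biogenesis genes summed to -0.28, -0.23 and 0.46, with medians of -0.19, -0.50 and -0.24 over 3 genes at 0.5 or more. The last sum lay largely with Utp20, a factor for small-subunit processing, at 2.75 in db/db against 0.824 in WT. In the double mutant over Sco2KO/KI the ribosomal protein group had 0.15. There the mitochondrial ribosomal protein genes had 0.19, the ribosome biogenesis genes 0.40 and the genes of mTORC1 and translation control 0.07. In the proximal tubule-like class Malat1 was lower in each of the 4 contrasts, with log2 ratios of -0.27 in the double mutant over db/db, -0.20 in Sco2KO/KI against WT, -0.38 in the double mutant over Sco2KO/KI and -0.31 in db/db against WT. It was not lower in every cell type. Over all clusters compared its median ratios were -0.24, -0.12, -0.18 and -0.12 in the same order, and the highest were 0.16, 0.23, 0.42 and 0.34. The part of carried-over or attached cytoplasmic RNA in the differences between libraries was not tested.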

How the data were processed

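Nuclei of kidney cortex were profiled in 4 genotypes with 1 library each. The deposited values are a normalised signal that the authors made with Cell Ranger and Seurat against mm10, per the submitters' processing notes, with versions not given in the sources used here. Each value is the mean over the nuclei of 1 cluster and library of UMIs scaled to 10000 per nucleus, as read from the 83 column totals, and 0 columns were left unassigned. A set of 25 entries with calendar dates for names was left out. Filters on nuclei, treatment of doublets and the rule for reads with several matches are unknown.

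Nuclei per average and their UMI totals were recovered from the lowest values: where a single nucleus held 1 UMI of a gene, 10000 divided by the value equals that nucleus's UMI total times the nuclei averaged. The largest integer dividing at least 80% of the whole quotients (relative tolerance 1e-10) among the lowest 70% of values was taken, and it divided at least 93.5% in every column. Tested on simulated data, the step returned every number of nuclei exactly but the median UMI totals only roughly. Ratios of single clusters scattered around the simulated log2 ratio of -0.74, from -1.37 to -0.55. UMI totals, UMIs per nucleus and ratios of single clusters are therefore approximate. The sign of a small ratio in a single cluster is uncertain. Counting intervals were not given, because raw counts were not used here. Marker lists gave the cluster names, and clusters 0, 1, 2, 3 and 7 were averaged without weights as the proximal tubule-like class.

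Log2 ratios were taken per cluster after adding 0.1 to each value and averaged over the class, which understates differences of low genes. Sums read over all clusters and sums of the other gene lists used no pseudocount. Ratios for parts of the group (the 12 highest members, the other 65, each subunit) were instead taken from sums of class means. Medians and counts were given for genes at 0.5 or more in either library and for all genes. With 1 library per genotype, no test was run. Named members were the 5 highest and 5 lowest by level, the 4 highest and 4 lowest ratios per comparison, the 4 widest and 4 narrowest spreads over clusters, and paralogue pairs; named non-members were the 10 most alike and the highest of each list. One gene that this rule names is not reported here. The members and lists were chosen with earlier results of these data known. Near-identical copies were found with blastn 2.17.0 on GENCODE vM21 transcripts, and start-site words with Python 3.11.15. Alternatives varied the pseudocount, the floor, the total, the weights, the clusters and the members.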

Additional observations from a re-analysis of the deposited data

Results flagged for a closer look

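The Sco2KO/KI contrast of the ribosomal protein group ran in opposite directions on the db/db and on the lean background in the proximal tubule-like class. On the summed level the log2 ratio of Sco2KO/KI;db/db to db/db exceeded that of Sco2KO/KI to WT by 0.79, and on the median of the members at 0.5 or more by 0.99. That median was taken over 9 members on db/db and 12 on the lean background, and over all 77 members the medians were 0.11 and -0.20. All 5 clusters of the class were positive on db/db and negative on the lean background. The difference was not tested, since each genotype had 1 library. Mitochondrially encoded transcripts had the same sign on both backgrounds, with 1.11 and 0.90. Median UMI totals differed too, since Sco2KO/KI nuclei were deeper than those of the other libraries. The part of depth in the difference was not tested.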

How the results depend on the processing

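No result changed sign under any alternative that was run. The summed log2 ratio lay between 0.35 and 0.54 for the double mutant over db/db, -0.36 and -0.27 for Sco2KO/KI over WT, 0.05 and 0.21 for the double mutant over Sco2KO/KI, and -0.71 and -0.59 for db/db over WT. Counts past 1.5-fold and medians moved more, and the cause was not tested beyond the construction of each setting. For the double mutant over db/db, a pseudocount of 0.5 gave a median of 0.39 and 2 members higher, no floor a median of 0.11, and a floor of 1.0 or leaving out the 3 highest members 3 higher. For Sco2KO/KI over WT, a pseudocount of 0.5 gave a median of -0.21 and 0 members lower, no floor -0.20 and 4 lower, a floor of 1.0 gave 0 lower, and leaving out the 3 highest members a median of -0.22; leaving out cluster 0, 1 or 3 gave 1 lower and leaving out cluster 2 gave 4. For the double mutant over Sco2KO/KI, 1 member was higher with a pseudocount of 0.5, a floor of 1.0, centring on all genes, weights by nuclei or without the 3 highest members, and 0 without cluster 7. For db/db over WT, a pseudocount of 0.5 gave a median of -0.41 and 3 lower, no floor -0.20 and 14 lower, a floor of 1.0 gave -0.99 and 3 lower, leaving out cluster 0 gave -0.76, and adding near-identical copies to their member gave 10 lower of 15. Adding the copies, leaving out the 3 highest members or Rpl29, and subtracting library means were chosen after seeing the data. The median likeness of the 10 genes most alike was 0.82, and 0.71 with the mean of each cluster subtracted. Of 282 values, 30 moved by more than the spread over clusters (for counts, by over 1.5 times; for the likeness, by 0.1 or more). Smaller moves included the summed ratio of the double mutant over Sco2KO/KI, 0.05 without the 3 highest members and 0.07 without cluster 7, against 0.15. They also included the medians over all clusters without the proximal tubule-like ones, -0.12 against -0.28 for Sco2KO/KI over WT and -0.12 against -0.02 for the double mutant over Sco2KO/KI.

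No paired analysis was possible because each genotype had 1 library and the labels give no replicate numbers. Depth limits low members most: 29 of 77 stayed under 0.1 in every library.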
